A study of Rattus norvegicus with 12 samples.

Results

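Astrocyte identity genes were followed in primary hippocampal cultures exposed to oxygen and glucose deprivation (OGD), a cell culture model of ischemia. They comprised 10 rat genes, Aqp4, Gja1, Gjb6, Glul, Aldh1l1, Acsbg1, Ndrg2, S100b, Fgfr3 and Ntsr2, chosen by name because they are widely used as markers of astrocytes. All 10 had a probe on the array, 14 probes in total of 30367 non-control probes, and the 15154 genes that could be named in the data formed the background. A gene with several probes was represented by its brightest one. The cultures came from Wistar rat embryos at embryonic day 18 by the labels (E18-E19 in the study's methods) and were grown for 14 to 15 days. Control (Ctrl) cultures were kept in a saline buffer with 25 mM glucose in air and CO2. The OGD cultures were kept in glucose-free buffer, with sucrose in its place, in an anaerobic chamber, and both were returned to conditioned medium for 7 h or 24 h of recovery. Each of the 4 groups had 3 arrays, 1 for each of 3 cultures, and the labels name no transgene or drug in any group. According to the methods of the study, glial cells are a minority of such cultures, which the labels call neuronal. The study describes the 3 cultures as independent replicates, and p-values of the fit without a block measure the spread between arrays of a group. Whether the Ctrl and OGD arrays of 1 replicate number came from the same preparation of cells is not given in the sources used here. A lower number of astrocytes and less RNA per astrocyte cannot be told apart in RNA from a whole culture.

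Astrocytes take up glutamate and potassium released by neurons, couple to each other through gap junctions and regulate the water balance of the brain. Aqp4 encodes the water channel of their endfeet, and Gja1 and Gjb6 encode the connexins Cx43 and Cx30, the main gap junction proteins of astrocytes. Glul encodes glutamine synthetase, which turns glutamate into glutamine for return to neurons. Aldh1l1 encodes a folate enzyme that oxidizes 10-formyltetrahydrofolate, and Acsbg1 a long-chain acyl-CoA synthetase. Ndrg2 encodes a cytoplasmic protein enriched in astrocytes, S100b a calcium-binding protein, Fgfr3 a receptor for fibroblast growth factors and Ntsr2 a neurotensin receptor.

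The promoters of the connexin pair are shown because Gja1 and Gjb6 serve the same structure in the same cells. A link between these sequences and the signals on the arrays was not tested. The 250 bases before the transcription start were taken from RefSeq (rat assembly GRCr8), at chr20:36302314-36302563 on the plus strand for Gja1 and at chr15:35410139-35410388 on the minus strand for the first of the 2 listed starts of Gjb6. Capitals mark matches to TGANTCA, the site bound by AP-1 factors, and to TTTAAA, an A/T-rich stretch, on either strand.
Gja1: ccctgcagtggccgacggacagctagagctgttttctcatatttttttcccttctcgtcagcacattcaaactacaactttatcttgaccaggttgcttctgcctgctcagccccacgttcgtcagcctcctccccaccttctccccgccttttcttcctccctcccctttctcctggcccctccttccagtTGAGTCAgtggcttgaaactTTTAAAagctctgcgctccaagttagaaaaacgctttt
Gjb6: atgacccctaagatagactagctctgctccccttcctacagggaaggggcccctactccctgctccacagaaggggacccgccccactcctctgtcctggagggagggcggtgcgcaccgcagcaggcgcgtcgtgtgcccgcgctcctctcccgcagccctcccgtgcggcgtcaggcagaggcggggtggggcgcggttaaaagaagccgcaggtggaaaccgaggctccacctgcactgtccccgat
Gja1 was the only 1 of the 10 genes with a TGANTCA match in this window, starting 58 bases before the start site, and its TTTAAA match began 38 bases before it. Of the 33469 promoter windows in the table, 6.34% held a TGANTCA match and 12.3% a TTTAAA match. The window printed for Gjb6 held neither. S100b and Ntsr2 also had TTTAAA matches. Motifs of STAT, SOX and NFI factors were searched as well and matched neither Gja1 nor Gjb6.

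The signal of a spot is its background-subtracted fluorescence, and values below are log2 signals minus the median of the same array, so that 1 unit is a factor of 2. The OGD 24 h replicate 1 array was the dimmest, with a median intensity of 131 units over its spots, and the other arrays reached up to 660. This array also had the lowest mean correlation with its own group, 0.948, against 0.963 to 0.994 for the others, and results that rest on it are given with and without it. Each of the 6 slides held the Ctrl and the OGD array of 1 time and 1 replicate number, and the position on the slide was tied to the condition, so position and condition cannot be told apart. The 7 h arrays were scanned on 1 day and the 24 h arrays on another. Of the 10 genes, 9 were well above background on all 12 arrays, although none of them is exclusive to astrocytes. Gjb6 was well above background on 10, all but the replicate 1 arrays of both groups at 7 h.

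No OGD effect on these genes exceeded the spread in limma's test of the 4 groups, which pools it over all 4. There, 0 of the 10 genes passed an unadjusted p of 0.05 at 7 h, where 11.8% of all probes did, and 0 of 10 at 24 h, where 13.7% of all probes did. After Benjamini-Hochberg adjustment 0 of 30367 probes passed 0.05 at either time, against 3590 and 4160 unadjusted, and adjusted p-values below are over all these probes. The OGD effect at 24 h minus that at 7 h passed for 0 of 10 genes, against 3.58% of all probes. Leaving out the saturated Ndrg2, the differences ran from -0.47 for Fgfr3 to 0.40 for Glul at 7 h (median 0.13, and -0.06 over all probes) and from -0.55 for Aqp4 to 0.55 for Gjb6 at 24 h (median -0.11, and 0.01 over all probes). The standard errors at 7 h also hold the spread of the 24 h arrays. Without the OGD 24 h replicate 1 array they went from 0.54 to 0.23 for Glul and from 0.26 to 0.14 for Acsbg1. For Aqp4 the change was from 0.47 to 0.21, and for Gjb6 only from 1.31 to 1.29.

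**Figure D1:**
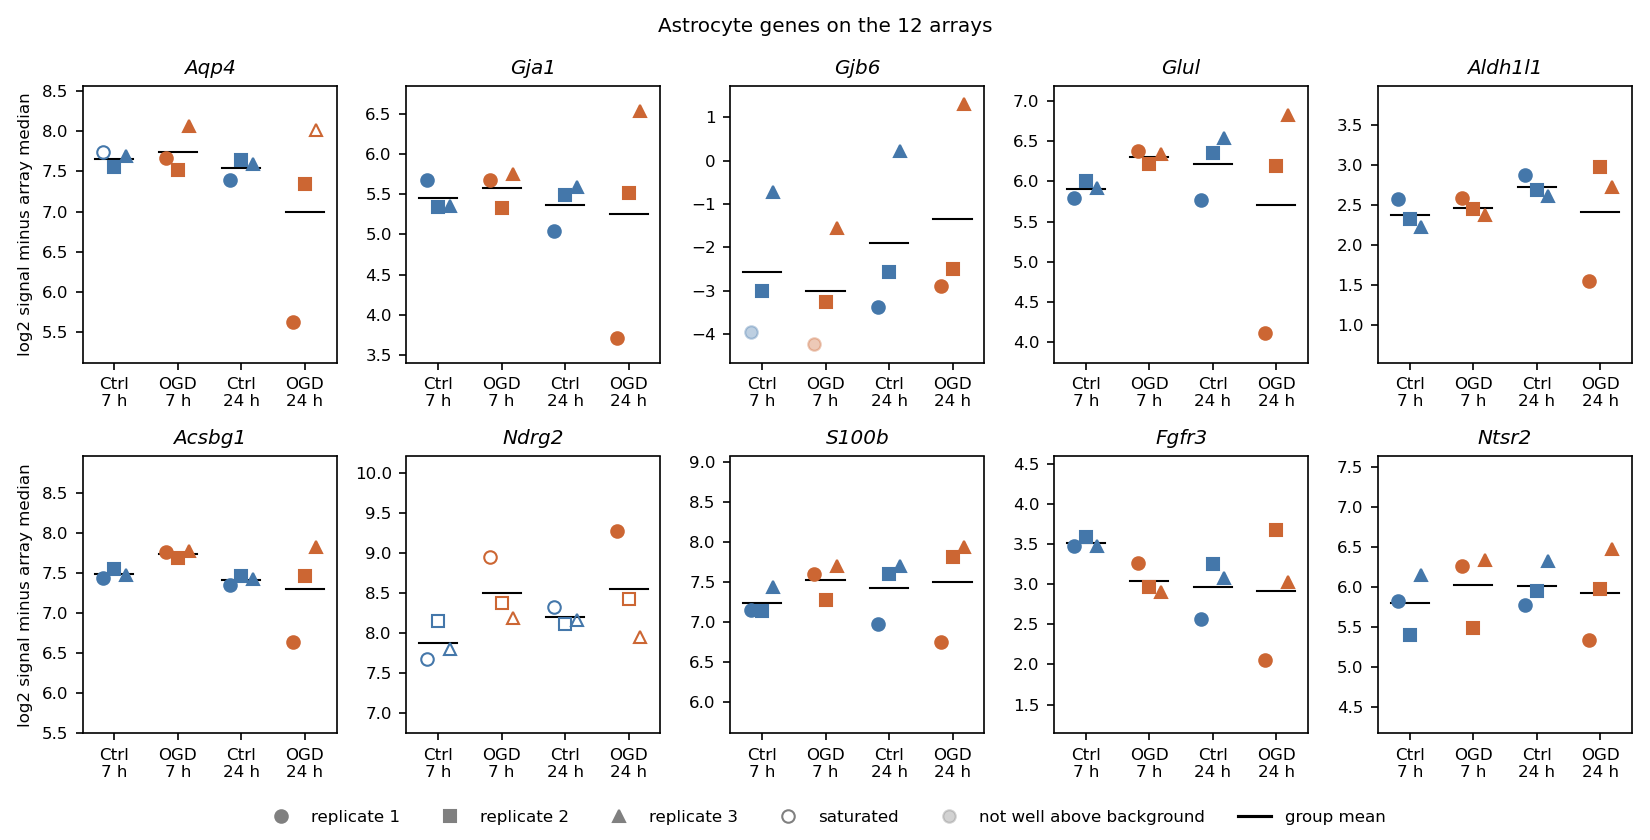
Log2 signal minus the array median (vertical axes, each with its own range) of the 10 astrocyte genes in the 4 groups, 1 point per array, with bars at the group means. The circle of OGD 24 h is the lowest of the 12 arrays for 8 of the 10 genes, Gjb6 is highest on the replicate 3 array in all 4 groups, and open symbols mark saturated spots, 11 of the 12 for Ndrg2.

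The water channel gene Aqp4 had the largest negative difference at 24 h. It read 7.74, 7.55 and 7.69 in Ctrl and 7.66, 7.52 and 8.06 in OGD at 7 h (replicates 1 to 3), and 7.40, 7.64 and 7.59 in Ctrl and 5.62, 7.34 and 8.01 in OGD at 24 h. The groups overlapped at both times, and the 3 OGD arrays at 24 h lay both below and above all Ctrl arrays. The log2 fold change was 0.09 ± 0.47 (SE, with a 95% interval of -0.95 to 1.13, limma's adjusted p = 0.946) at 7 h, but -0.27 after quantile normalization, -0.55 under normexp, another background correction, and -0.72 under scaling to a spike-in probe. At 24 h it was -0.55 ± 0.47 (-1.60 to 0.49, adjusted p = 0.600). Without the OGD 24 h replicate 1 array the 24 h value was 0.13 (adjusted p = 0.875). Without replicate 3 it was -1.06, past an unadjusted p of 0.05 as 10.8% of all probes were in that direction, with an adjusted p = 0.212. This probe was saturated on the Ctrl 7 h replicate 1 and the OGD 24 h replicate 3 arrays. The other probes of Aqp4 were unsaturated on all arrays and gave 0.36 and 0.25 at 7 h and -0.15 and -0.55 at 24 h, none past the test. At 24 h the first of them was lower in OGD on every slide (-0.24, -0.10 and -0.10). The second was lower on the slides of replicates 1 and 2 (-1.13 and -0.97) and higher on that of replicate 3 (0.44).

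Gja1, encoding Cx43, was steady in every group but OGD at 24 h. It read 5.68, 5.35 and 5.36 in Ctrl and 5.67, 5.33 and 5.75 in OGD at 7 h, and 5.04, 5.49 and 5.59 in Ctrl and 3.71, 5.51 and 6.54 in OGD at 24 h. The standard deviation was 0.19, 0.23 and 0.29 in the first 3 of these groups and 1.43 in the last, where the median over all probes was 0.49. The log2 fold change was 0.13 ± 0.54 (-1.08 to 1.33, limma's adjusted p = 0.933) at 7 h and -0.12 ± 0.54 (-1.32 to 1.09, adjusted p = 0.970) at 24 h. The 7 h sign turned under normexp (-0.47) and spike-in scaling (-0.68). Without the OGD 24 h replicate 1 array the sign at 24 h was the opposite, 0.66 (95% interval -0.02 to 1.34, adjusted p = 0.437).

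Gjb6, encoding Cx30, differed far more between replicate numbers than between conditions. It read -3.97, -3.01 and -0.72 in Ctrl and -4.24, -3.25 and -1.56 in OGD at 7 h, and -3.39, -2.57 and 0.23 in Ctrl and -2.88, -2.50 and 1.31 in OGD at 24 h. The replicate 3 array was the highest and the replicate 1 array the lowest in all 4 groups. The excess of replicate 3 over the mean of the other arrays of its group was between 2.19 and 4 log2 units, an excess over 1 in all 4 groups that 0.248% of all probes (75 probes) had. Replicate 3 was the highest in all 4 groups for 4.53% of all probes, and among the representative probes of the 10 genes also for S100b and Ntsr2 (excess at least 0.26 and 0.45). Whether a replicate number stands for 1 preparation of cells at both times is not given in the sources used here.

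Within the slides, Gjb6 was lower in OGD on all 3 slides at 7 h, by -0.28, -0.24 and -0.84, and higher on all 3 at 24 h, by 0.50, 0.07 and 1.08. The fitted differences were -0.45 ± 1.31 (-3.36 to 2.45, limma's adjusted p = 0.898) at 7 h and 0.55 ± 1.31 (-2.35 to 3.45, adjusted p = 0.891) at 24 h. These errors include the differences between replicate numbers. With the slide as a block, limma gave an unadjusted p of 0.12 at 7 h and 0.07 at 24 h (adjusted p = 0.534 and 0.436). The signal was dim, between 6.38 and 591 units. The 7 h direction turned to 0.32 under normexp, and the 24 h direction turned to -0.47 under scaling to the spike-in probe.

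Glul, encoding glutamine synthetase, was higher in OGD at 7 h with no overlap between the groups. It read 5.80, 6.01 and 5.92 in Ctrl and 6.38, 6.21 and 6.34 in OGD at 7 h, and 5.77, 6.36 and 6.54 in Ctrl and 4.11, 6.19 and 6.83 in OGD at 24 h. At 24 h the OGD arrays lay on both sides of the Ctrl arrays. The log2 fold change was 0.40 ± 0.54 (-0.80 to 1.60, limma's adjusted p = 0.801) at 7 h and -0.51 ± 0.54 (-1.71 to 0.69, adjusted p = 0.682) at 24 h. Fitted on the 7 h arrays alone, with the spread taken from these arrays, Glul passed an unadjusted p of 0.05 with an adjusted p = 0.256. Without the OGD 24 h replicate 1 array the 24 h value was 0.29 (adjusted p = 0.709). The sign at 7 h turned under normexp (-0.20) and spike-in scaling (-0.40).

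Neither of the metabolic enzymes Aldh1l1 and Acsbg1 passed the test. Acsbg1 read 7.43, 7.55 and 7.47 in Ctrl and 7.76, 7.68 and 7.77 in OGD at 7 h, and 7.34, 7.46 and 7.42 in Ctrl and 6.63, 7.46 and 7.82 in OGD at 24 h. Its groups did not overlap at 7 h, where the log2 fold change was 0.25 ± 0.26 (-0.32 to 0.82, limma's adjusted p = 0.723), and it turned to -0.32 under normexp and -0.56 under spike-in scaling. At 24 h it was -0.11 ± 0.26 (-0.67 to 0.46, adjusted p = 0.895), and 0.23 without the OGD 24 h replicate 1 array. Acsbg1 was not flagged as saturated, but its signal reached 50895 units in Ctrl at 7 h and 53698 in OGD at 24 h. The flagged readings of Ndrg2 began at 58947 units, and compression near that ceiling was not tested. Aldh1l1 read 2.58, 2.33 and 2.22 in Ctrl and 2.59, 2.45 and 2.37 in OGD at 7 h, and 2.88, 2.68 and 2.61 in Ctrl and 1.55, 2.98 and 2.72 in OGD at 24 h. Its groups overlapped throughout, and the differences were 0.09 ± 0.32 (-0.61 to 0.79, limma's adjusted p = 0.915) at 7 h and -0.31 ± 0.32 (-1.01 to 0.39, adjusted p = 0.669) at 24 h. The 7 h sign turned under normexp (-0.30) and spike-in scaling (-0.72), and the 24 h value became 0.13 when the OGD 24 h replicate 1 array was left out.

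Ndrg2 was too bright to be measured. Its only probe was saturated on 11 of the 12 arrays, with intensities between 46600 and 61070 units, and the exception was the OGD 24 h replicate 1 array. With the signal at the ceiling, its value relative to the array median follows that median, and no fold is given. Its 7 h value passed an unadjusted p of 0.05 upward when the OGD 24 h replicate 1 array was left out, as did 9.48% of all probes, and the same saturation holds there.

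The calcium-binding protein gene S100b read 7.15, 7.14 and 7.44 in Ctrl and 7.60, 7.28 and 7.70 in OGD at 7 h, and 6.97, 7.61 and 7.70 in Ctrl and 6.75, 7.81 and 7.94 in OGD at 24 h. Its groups overlapped at both times. The log2 fold change was 0.29 ± 0.32 (-0.42 to 0.99, limma's adjusted p = 0.743) at 7 h and 0.07 ± 0.32 (-0.63 to 0.78, adjusted p = 0.964) at 24 h, and the latter was 0.45 (adjusted p = 0.502) when OGD 24 h replicate 1 was left out. Under normexp both turned, to -0.30 and -0.35, and under spike-in scaling to -0.52 and -0.95. The signal reached 58352 units on the OGD 24 h replicate 3 array, unflagged but just under the flagged readings of Ndrg2 (58947 units and above). A dimmer probe of S100b gave 0.38 and 0.03.

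Of the receptors, Fgfr3 was the gene with the lowest value at 7 h. It read 3.48, 3.59 and 3.48 in Ctrl and 3.27, 2.97 and 2.90 in OGD at 7 h, and 2.56, 3.26 and 3.08 in Ctrl and 2.06, 3.68 and 3.03 in OGD at 24 h. All OGD arrays at 7 h lay below all Ctrl arrays, and the groups overlapped at 24 h. The log2 fold change at 7 h was -0.47 ± 0.35 (-1.24 to 0.31, limma's adjusted p = 0.612), and -0.73 ± 0.33 (adjusted p = 0.423) for a second probe of the gene. The brighter probe passed an unadjusted p of 0.05 with limma on the 7 h arrays alone (adjusted p = 0.248) and on the slides of replicates 2 and 3 (-0.60, adjusted p = 0.473, where 5.98% of all probes passed downward). At 24 h the value was -0.04 ± 0.35 (-0.82 to 0.73, adjusted p = 0.999), and 0.39 without the OGD 24 h replicate 1 array. The OGD effect at 24 h minus that at 7 h was 0.42 (adjusted p = 1). Without that array it was 0.85, past an unadjusted p of 0.05 as 3.59% of all probes were upward, with an adjusted p = 0.521.

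Ntsr2 read 5.83, 5.40 and 6.15 in Ctrl and 6.26, 5.48 and 6.34 in OGD at 7 h, and 5.78, 5.95 and 6.32 in Ctrl and 5.33, 5.98 and 6.47 in OGD at 24 h. The groups overlapped at both times. The log2 fold change was 0.23 ± 0.34 (-0.51 to 0.98, limma's adjusted p = 0.821) at 7 h, turning to -0.37 under normexp and -0.58 under spike-in scaling. At 24 h it was -0.09 ± 0.34 (-0.84 to 0.66, adjusted p = 0.950), and 0.21 in the fit that left out the OGD 24 h replicate 1 array.

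The fitted difference at 7 h was above 0 for 7 of the 9 measurable genes, against 45.2% of all probes, and all 7 were below 0 under normexp and under spike-in scaling. Read by slide, the OGD array was higher on all 3 slides for 5 of 9 genes (Glul, Aldh1l1, Acsbg1, S100b and Ntsr2), as it was for 23.7% of all probes, and lower on all 3 for Gjb6 and Fgfr3, as for 23.6% of all probes. The groups did not overlap for 2 of 9 upward (Glul and Acsbg1, against 10.6% of all probes) and for 1 of 9 downward (Fgfr3, against 15.5%). An exact permutation test over 3 against 3 arrays (two-sided) gave p = 0.1 for these 3 genes, the smallest it can give. Groups without overlap always give this value, so the test adds nothing to the overlap counts. These genes vary together over the arrays, so their counts are not independent. At 24 h the OGD array was higher on all 3 slides for Gjb6 alone (20.9% of all probes) and lower on all 3 for 0 of 9 (12.1%), and 0 of 9 had groups without overlap (10.9% upward and 7.02% downward). The methods' t-test on each time alone passed an unadjusted p of 0.05 at 7 h for Acsbg1, Glul and Fgfr3, where 5.77% of all probes passed upward and 9.7% downward, and limma on each time alone for Glul and Fgfr3 (7.71% and 10.3%). With Benjamini-Hochberg adjustment the methods' t-test left 1 probe at 7 h and 0 at 24 h, none of them of these genes. With the slide as a block, the difference between times passed unadjusted for Gjb6 alone of the 10 genes, as for 2.56% of all probes upward.

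**Figure D2:**
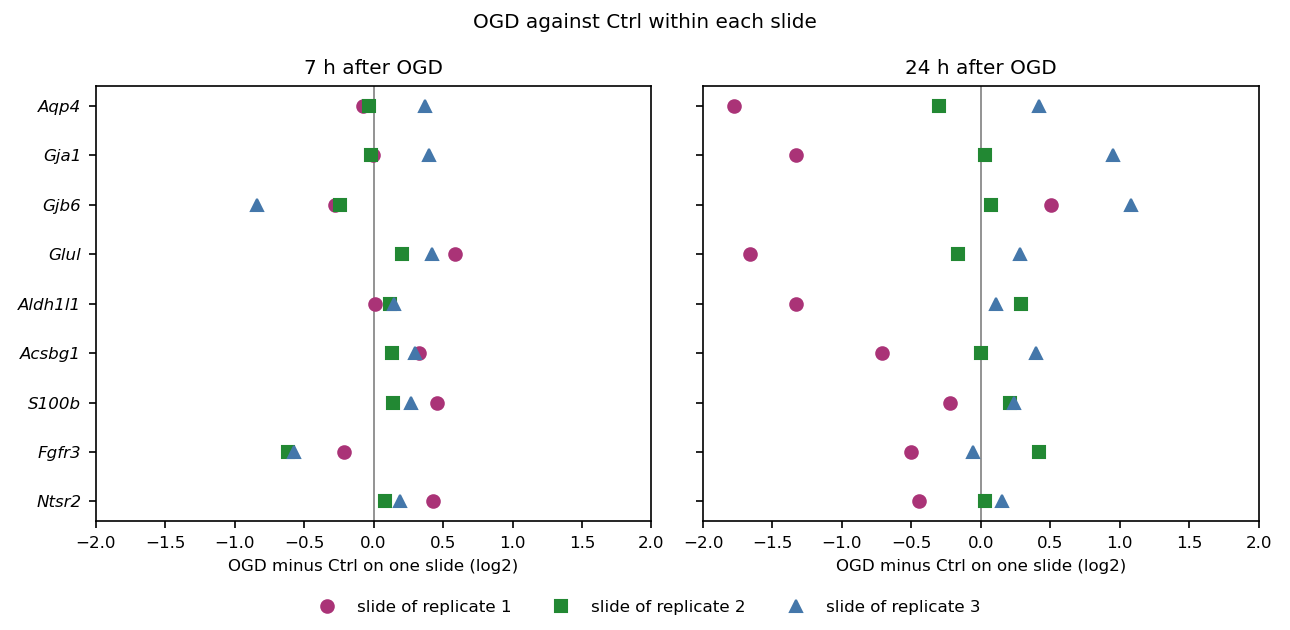
OGD minus Ctrl in log2 units on each slide (horizontal axes) for the 9 measurable astrocyte genes at 7 h and 24 h, 1 symbol per slide. At 24 h the replicate 1 slide lies below 0 for 8 of the 9 genes, down to -1.78 for Aqp4, while Gjb6 lies below 0 on all 3 slides at 7 h and above 0 on all 3 at 24 h with this centring, directions that turned under normexp (7 h) and spike-in scaling (24 h).

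The negative 24 h values of the representative probes turned positive without the OGD 24 h replicate 1 array. It was the lowest of the 12 arrays for 8 of the 10 genes, and 8 of 10 were lower on it by more than 1 log2 unit than on the mean of its 2 companion arrays, against 13.1% of all probes. The largest gaps were those of Glul at -2.40, Gja1 at -2.31 and Gjb6 at -2.29, and the median over the 10 genes was -1.30 beside 0.02 over all probes. Neuron genes were lower on it too, with a median of -1.02, whereas other astrocyte genes had -0.68 and reactive astrocyte genes -0.47. These medians include saturated probes, of 2 of the 10 genes (Ndrg2 was at 1.08), 4 of 18 other astrocyte genes and 1 of 18 neuron genes. Values at the ceiling follow the array median, so the lists are not compared free of saturation. Without the OGD 24 h replicate 1 array all 9 measurable genes, against 49.6% of all probes, were above 0 at 24 h, from 0.13 for Aldh1l1 to 1.32 for Gjb6 (median 0.29). None passed an unadjusted p of 0.05, which 5.06% of all probes passed upward and 5.77% downward. That fit kept the Ctrl array of the same slide, the lowest Ctrl array at 24 h for every measurable gene but Aldh1l1. On the slides of replicates 2 and 3 alone, Glul and Aqp4 were at 0.061 each, against 0.29 and 0.13 in that fit. Aldh1l1 went the other way, 0.20 against 0.13. The part of signal, RNA quality or cell make-up in the values of the OGD 24 h replicate 1 array was not tested.

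**Figure D3:**
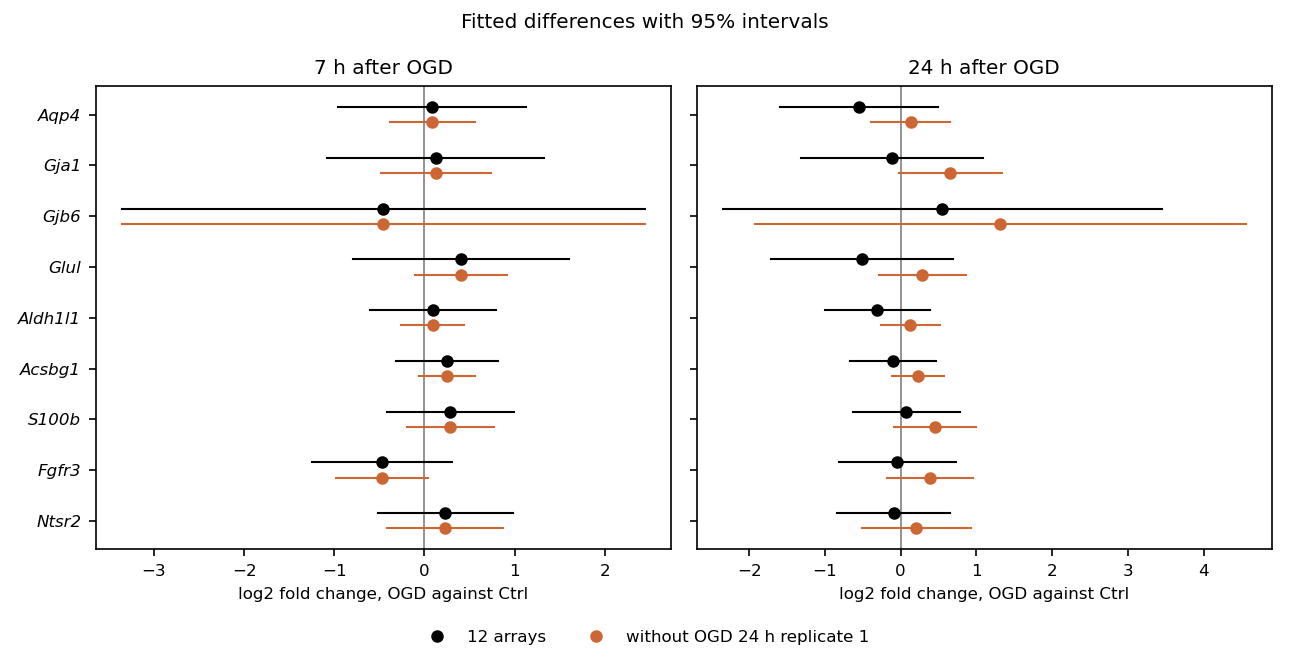
Log2 fold change of OGD against Ctrl (horizontal axes) with 95% intervals from limma, for all 12 arrays and without the OGD 24 h replicate 1 array. All intervals include 0, the positive values at 7 h turned negative under normexp and spike-in scaling, and at 24 h the points of 7 of the 9 genes move from below to above 0 when the array is left out.

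The genes moved together from array to array. Over the 12 arrays, Pearson's r between pairs of the 8 genes with signal on every array and at most 2 saturated arrays was between 0.26 and 0.93 (median 0.68, 28 pairs), and highest for Gja1 with Glul. Without the OGD 24 h replicate 1 array the median was 0.39 and the range -0.40 to 0.85, so much of this likeness lay in 1 array. The arrays share the slides and the 4 groups, and these correlations are descriptions. The genes of the array most like the mean standardised profile of the 9 genes that were well above background on every array, Ndrg2 included, were Gpr37l1 (r = 0.961 over 12 arrays, 0.823 over 11), Folh1 (0.952 and 0.850), Cyp7b1 (0.941 and 0.899), Aamdc (0.934 and 0.959) and Smpdl3a (0.933 and 0.893), of 10904 genes compared. Gpr37l1 encodes an orphan receptor found in glia, Folh1 the peptidase that releases glutamate from N-acetylaspartylglutamate, and Cyp7b1 an oxysterol hydroxylase. Their own OGD effects ran from 0.08 to 0.39 at 7 h and from -0.48 to 0.07 at 24 h, none past the test.

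Genes of the same families and pathways were read from lists drawn up by function with earlier results of these data known, so their counts are descriptions. At 7 h 4.79% of all probes passed an unadjusted p of 0.05 upward and 7.03% downward, and at 24 h 7.51% and 6.19%, which is the background for the counts that follow. There, rose and fell refer to that unadjusted threshold, which no gene passed after adjustment. Of 10 connexins and pannexins other than the pair above, 1 rose and 3 fell at 7 h, and 1 rose and 2 fell at 24 h. The connexin gene Gjc1 rose by 0.44 at 7 h and 0.79 at 24 h, whereas the channel genes Panx1 (-0.79 and -0.69) and Panx2 (-0.61 and -0.63) were lower at both times. Of 8 aquaporins and anchors of Aqp4, 0 rose at either time, while 1 fell at 7 h and 2 at 24 h, among them the aquaporin gene Aqp11 at 24 h (-0.79). Of 10 glutamine and glutamate genes, 2 fell at 7 h and 3 at 24 h. The aminotransferase genes Got1 (-0.88 and -0.95) and Got2 (-0.69 and -0.58) were lower at both times. When OGD 24 h replicate 1 was left out, the 24 h calls of Panx1 (-0.42), Panx2 (-0.34), Aqp11 (-0.42), Got1 (-0.47) and Got2 (-0.44) were lost. At 7 h the genes that fell in that fit numbered 4 of 10 for glutamine and glutamate and 2 of 8 for aquaporins and anchors. There, 11.6% of all probes passed downward at 7 h, a higher background than in the main fit.

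Of 7 folate enzymes measured, 2 rose and 0 fell at both times, among them Mthfd2l (0.69 and 0.57). Among 8 other acyl-CoA synthetase genes 0 rose, while Slc27a4 was lower at both times (-0.85 and -0.87) and Acsl5 at 7 h (-0.68). Of 16 relatives of Ndrg2, S100b, Fgfr3 and Ntsr2, Fgfr1 was lower at both times (-0.50 and -0.51). The calcium-binding protein genes S100a6 (2.96), S100a11 (2.60) and S100a4 (1.21) rose at 24 h, where the neurotensin gene Nts (-1.61) and its receptor Ntsr1 (-1.61) were lower. The 24 h calls of Mthfd2l (0.40), Slc27a4 (-0.47), Nts (-1.13) and Ntsr1 (-1.02) were lost in the fit that left out the same array.

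Markers of astrocytes outside the 10 genes were read in the same way. Of 18 other astrocyte genes measured, 4 passed upward at 7 h, Sparcl1 (0.66), Fabp7 (0.65), Aldoc (0.65) and the glutamate transporter gene Slc1a3 (0.52). All 4 had saturated probes, on 11 arrays for the first 3 and on 5 for Slc1a3, and 0 of the 14 genes without a saturated array passed at 7 h (median 0.11). At 24 h the metabotropic glutamate receptor gene Grm3 alone passed, downward (-1.65, and -0.61 without the OGD 24 h replicate 1 array). The intermediate filament gene Gfap differed by 0.11 at 7 h and -0.45 at 24 h, with limma's adjusted p = 0.925 and adjusted p = 0.656.

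Of 17 genes induced in reactive astrocytes that were measured, 5 rose at 7 h and 8 at 24 h, while 0 fell at either time, and none had a saturated array. The median differences were 0.82 and 1.19. At 7 h Tgm1 (1.21), Emp1 (1.71), the protease inhibitor gene Timp1 (0.92) and Ptx3 (1.17) rose, and at 24 h the hyaluronan receptor gene Cd44 (1.61), Emp1 (1.65), S100a10 (1.52) and Timp1 (1.23) rose. With the OGD 24 h replicate 1 array left out, 9 rose at 24 h, where 5.06% of all probes passed upward. Under spike-in scaling none rose at either time. Several of these genes are also expressed by microglia, vascular cells or injured neurons, and the cells that carried the change were not identified.

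Markers of other cells moved in the same samples, and their part in the values of the 10 genes was not tested. Neuron genes were lower in 3 of 18 cases at 7 h (Eno2 by -1.10, Slc17a7 by -1.18 and Slc17a6 by -1.14) and in 12 of 18 at 24 h, among them Eno2 (-1.06), Syt1 (-1.18), Syn1 (-1.26) and Slc17a7 (-1.53), with medians of -0.34 and -0.83. In the fit that left out the OGD 24 h replicate 1 array 8 of 18 neuron genes fell at 7 h and 6 at 24 h. Of all probes, 11.6% passed downward at 7 h and 5.77% at 24 h in that fit. The 24 h calls of Cd68 (0.55), Olig2 (0.48) and Flt1 (0.71) below were lost there as well. The mean of the neuron genes ran from 3.97 to 4.60 on the Ctrl arrays and from 2.78 to 3.99 on the OGD arrays, whereas the mean of the 10 astrocyte genes ran from 4.87 to 5.52 and from 4.21 to 5.86. The astrocyte mean includes the saturated Ndrg2, which read 9.27, its highest value, on the OGD 24 h replicate 1 array, where that mean was lowest. The neuron mean includes Stmn2, saturated on 6 arrays, so the 2 ranges are not free of saturation. Because each array is centred on its own median, a fall in other transcripts raises the remainder in relative terms. Of 14 microglia genes, Cx3cr1 rose at 7 h (1.02) and Cd68 at 24 h (0.96). Of 13 oligodendrocyte lineage genes, Cspg4 (-1.08), Sox10 (-0.96) and Gpr17 (-0.34) were lower at 7 h and Olig2 rose at 24 h (0.48). The 7 h call of Sox10 was lost when the OGD 24 h replicate 1 array was left out. Then 2 of 13 fell at 7 h, against 11.6% of all probes. Of 13 vascular and fibroblast genes, Cldn5 (-1.48), Pecam1 (-0.91) and Rgs5 (-1.33) were lower at 7 h, well above background on 6, 9 and 1 of the 12 arrays, and Pdgfrb (1.34) and Flt1 (0.81) rose at 24 h. Of 6 proliferation genes none passed, and the brightest, Cdk1, differed by 0.14 and 0.34.

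**Figure D4:**
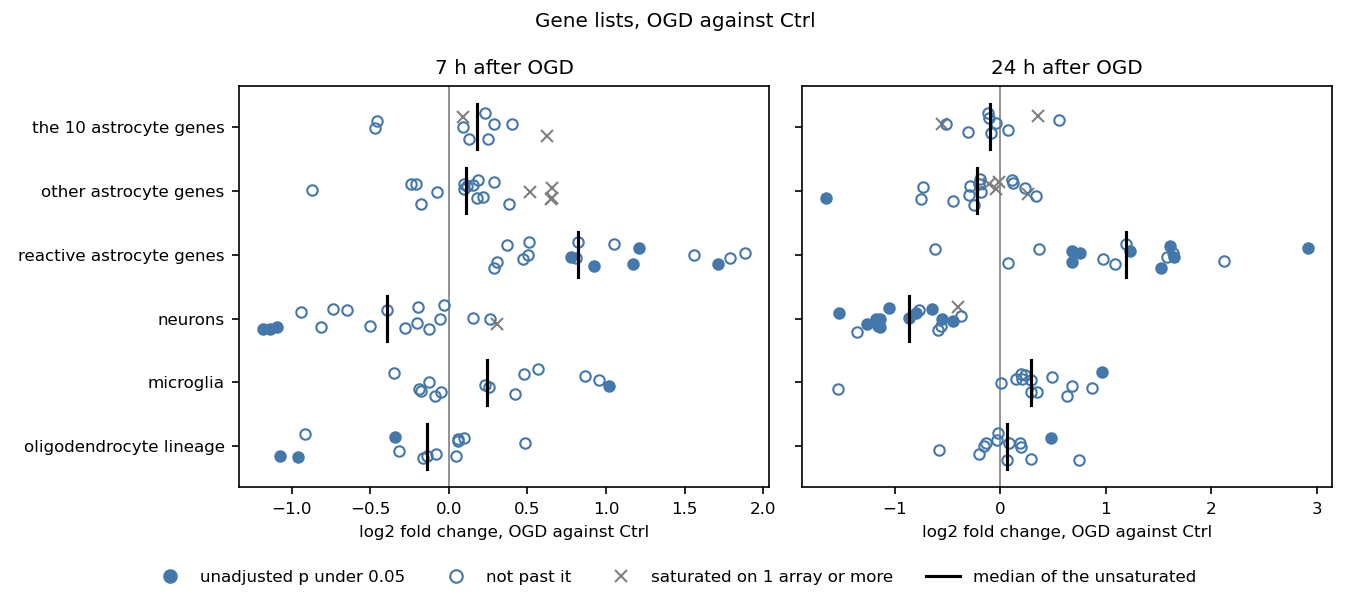
Log2 fold change of OGD against Ctrl (horizontal axes) for each measured gene of 6 lists at 7 h and 24 h, filled where the unadjusted limma p was under 0.05, with crosses for genes saturated on 1 array or more and bars at the median of the others. The astrocyte genes sit around 0 at both times, reactive astrocyte genes to the right of it (medians 0.82 and 1.19) and neuron genes to the left at 24 h.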

How the data were processed

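Cy3-labelled RNA (200 ng) of the 12 samples was read on 12 one-colour Agilent arrays. The authors deposited the scanner software's intensity of each spot, background-subtracted and detrended, with no normalization between arrays. They also deposited log2 values after their median centring, which differed from the log2 intensities by 1 constant per array within 0.01.

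Spots flagged as outliers were dropped, spots of a probe averaged on the log2 scale and each array centred on the median of its non-control probes. Probes were named through RefSeq accessions. Groups were compared with limma 3.58.1 (R 4.3.3) in 1 model of the 4 groups. A probe counted as called at an unadjusted p under 0.05, the study's threshold without its fold of 2, since no probe passed after Benjamini-Hochberg adjustment over 30367 probes. The fit was tested on simulated data. Named list genes are up to 4 with the smallest unadjusted p per list and time, otherwise the brightest. The members and lists were chosen with earlier results of these data known. Same-numbered arrays of a slide did not deviate together on every slide (r from -0.19 to 0.31), so the numbers were not taken to pair the samples. Over pairs of arrays with the same replicate number the median r of these deviations was 0.15 (18 pairs). For pairs with other numbers it was -0.01 (36 pairs). Such correlations over whole arrays cannot show whether arrays of the same number share a preparation of cells. The normexp alternative used median spot signals. Replicates were 3 cultures a group per the labels, and their number limits the precision. Alternatives were other centring, scaling, background correction and tests, blocks for the slide, a filter on dim probes and leaving out each array. Some genes of the lists are counted but not reported by name here.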

Additional observations from a re-analysis of the deposited data

Results flagged for a closer look

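Gjb6 stood out because OGD and Ctrl differed one way on all 3 slides at 7 h and the other way on all 3 at 24 h. The OGD effect at 24 h minus that at 7 h was 1.01 on the log2 scale. In limma's test of this difference without a block the 95% interval was -3.10 to 5.11 and the adjusted p was 1, and with the slide as a replicate block it passed an unadjusted p of 0.05, as 2.56% of all probes did upward, with an adjusted p of 0.9998. The range of Gjb6 within a group, 2.68 to 4.2 log2 units, exceeded the OGD differences of every slide, which reached 1.08. Both the 24 h value (-0.78) and the difference between times (-0.33) turned negative when the OGD 24 h replicate 3 array was left out.

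All 4 of the other astrocyte genes called higher at 7 h (Sparcl1, Fabp7, Aldoc and Slc1a3) had probes at the ceiling of the scanner.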

How the results depend on the processing

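Of the 630 refitted values of the 9 measurable genes, 58 changed sign and 9 passed an unadjusted p of 0.05. With each array left out in turn, the log2 differences at 7 h ran from -1.18 to 0.47 for Gjb6 and from -0.0692 to 0.20 for Aqp4. At 24 h they ran from -0.78 to 1.62 for Gjb6, -0.15 to 0.45 for S100b, -0.42 to 0.39 for Fgfr3, -0.36 to 0.21 for Ntsr2, -0.59 to 0.13 for Aldh1l1, -0.36 to 0.23 for Acsbg1, -1.06 to 0.13 for Aqp4, -0.76 to 0.66 for Gja1 and -1.07 to 0.29 for Glul. The 24 h minus 7 h difference ran from -0.68 to 0.034 for Aldh1l1, -1.15 to 0.045 for Aqp4, -0.88 to 0.53 for Gja1, -0.44 to 0.16 for S100b and -0.33 to 2.07 for Gjb6. The 24 h values of 7 genes turned positive without the OGD 24 h replicate 1 array. With all arrays, those of Acsbg1, Fgfr3 and Ntsr2 also turned positive under centring on the 75th percentile. Leaving out a Ctrl 24 h array instead also turned those of Fgfr3 and Ntsr2. The count of the 10 astrocyte genes called ran from 0 to 1 upward at 7 h (the saturated Ndrg2, in fits that lacked OGD 24 h replicate 1 or 3), from 0 to 1 downward at 24 h (Aqp4, lacking OGD 24 h replicate 3) and from 0 to 1 for the difference between times (Fgfr3, lacking OGD 24 h replicate 1). Genes called over all other lists, 31 at 7 h and 42 at 24 h, ran from 11 to 42 and from 22 to 53. With a fold of 2 as well, probes numbered 631 up and 505 down at 7 h, and these counts ran from 357 to 1068 and from 307 to 682. The 24 h counts, 1126 up and 595 down, ran from 630 to 1601 and from 184 to 1444. These 4 counts were lowest without the replicate 1 and highest without the replicate 3 OGD array of the time compared.

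With normexp, values at 7 h became -0.30 for Aldh1l1, -0.32 for Acsbg1, -0.55 for Aqp4, -0.47 for Gja1, 0.32 for Gjb6, -0.20 for Glul, -0.30 for S100b and -0.37 for Ntsr2, S100b became -0.35 at 24 h, and the probe counts were 2047 up and 871 down for 7 h and 190 up for 24 h. This setting adds 50 units to every signal, which lifts the median of a dim array most. Scaling to the spike-in probe moved the median of all probes by -0.81 and -1.02 against the main values and rests on 1 probe. It gave at 7 h -0.72 for Aldh1l1, -0.56 for Acsbg1, -0.72 for Aqp4, -0.68 for Gja1, -0.40 for Glul, -0.52 for S100b and -0.58 for Ntsr2, and at 24 h -0.47 for Gjb6 and -0.95 for S100b. The probe counts were then 74 up and 284 down for 7 h and 20 up for 24 h, and list genes numbered 1 and 10. Quantile normalization gave -0.27 for Aqp4 at 7 h and 0.033 for Gja1, 0.0403 for Fgfr3 and 0.014 for Ntsr2 at 24 h. Centring on the 75th percentile gave 0.0075 for Acsbg1, 0.068 for Fgfr3 and 0.023 for Ntsr2 at 24 h.

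The methods' t-test called 2 astrocyte genes higher and 1 lower at 7 h, with probe counts of 380 up for 7 h and 539 up and 95 down for 24 h. Limma on each time alone called 2 astrocyte genes higher (Glul and the saturated Ndrg2) and 1 lower at 7 h, and 329 probes lower at 24 h. On the slides of replicates 2 and 3 alone, an alternative chosen after seeing the data, the probe counts were 405 up for 7 h and 403 up and 140 down for 24 h, with 17 list genes at 24 h and 1 astrocyte gene lower at 7 h (Fgfr3). The 24 h values were then 0.20 for Aldh1l1, 0.20 for Acsbg1, 0.061 for Aqp4, 0.49 for Gja1, 0.061 for Glul, 0.18 for Fgfr3 and 0.089 for Ntsr2, and the difference between times 0.068 for Aldh1l1, 0.30 for Gja1 and 0.0195 for S100b. The replicate block (slide) called 1 of the 10 genes for the difference between times, Gjb6, and changed no call of the 10 at either time. At 7 h it moved the reactive astrocyte count from 5 to 8 and the other astrocyte count from 4 to 2, where those 4 all had saturated probes. The share of all probes that passed at 7 h with the block is not given here, so these counts have no background. The same-numbered arrays of a slide did not deviate together throughout, so the block is not read as a paired design. The causes of these shifts were not tested beyond what is stated.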
